A study of Mus musculus with 9 samples.

Results

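DNA replication and S-phase genes were described across 9 libraries of mouse back skin. The 39 members were taken as the rows of the count tables with the listed gene symbols. All 39 were found among the 23282 entries of the count tables, and all 39 passed the low-count filter that left 13740 genes to be tested. The skin came from wild-type C57BL/6 (B6) mice and was collected at 24 h. In unstripped skin (label None, 3 libraries) the labels name control cream, although the protocol places cream on the stripped area alone. Stripped control skin (TS, 3 libraries) had its outer layers removed by tape stripping and received control cream. Stripped NGO skin (TS_NGO, 3 libraries) was tape-stripped and received 50 μg of nano-sized graphene oxide (NGO) in 100 μL of cream per mouse. The sources used here give no age or sex. Nothing in the labels says that replicates came from separate animals, so p-values cover only the spread between these libraries, which may be technical.

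Before a cell divides it copies its genome once. In G1 the origin recognition complex, Cdc6 and Cdt1 load rings of Mcm2 to Mcm7 onto DNA, and at the start of S phase Cdc45 and the GINS complex turn these rings into active helicases. Polymerase alpha with its primase then starts each strand, polymerases epsilon and delta extend it on the sliding clamp PCNA, and Fen1 and Lig1 join the lagging-strand pieces. The transcription factor E2F1 and its relatives, released when cyclin E kinases act in late G1, are textbook activators of many of these genes. In healthy skin the cells that replicate are mainly basal keratinocytes and the matrix of growing hair follicles.

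Library totals ran from 2019739 to 6303322 counts of 3′ tags, and levels are given in CPM, with library totals scaled by edgeR's TMM factors. The stripped control libraries stood apart before any comparison. In them 9, 11 and 6 of the 39 members (replicates 1, 2 and 3) had 1 count or none, against 1 member in each unstripped library and at most 1 in an NGO library. Among genes at 10 CPM or more in unstripped skin, 8.57% to 14.3% of 9563 genes had 1 count or none in a stripped control library, and 9.38% to 21.9% of the 32 members at that level did. The members at 1 count or none differed between the stripped control libraries: 10 members were so in 1 library, 5 in 2 libraries and 2 (Pola1 and Ccne1) in all 3. The median SD of log2(CPM + 1) between replicates was 1.31 over the members in stripped control skin, against 0.558 in unstripped and 0.412 in NGO skin, and over all tested genes it was 0.977, 0.465 and 0.696 in the same order. The part that these sparse libraries play in the results below was not tested.

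After stripping, 5 members fell and none rose: the helicase genes Mcm7 and Gins2, the polymerase genes Pola1 and Pold1, and the ligase gene Lig1. With NGO cream the same 5 members rose against stripped control skin, and none fell. A gene was called where the edgeR quasi-likelihood test gave a Benjamini-Hochberg adjusted p under 0.05 over all genes tested. The 5 members are 12.8% of 39 in each comparison, while 7.64% of all tested genes fell after stripping and 3.87% rose with NGO cream. Both comparisons use the same 3 stripped control libraries, so the rise of the 5 members with NGO cream is not independent of their fall. Between NGO and unstripped skin no member was called, against 2.51% of all tested genes. When a fit held only the libraries compared, Lig1 kept both calls and Pola1 its fall (its rise had adjusted p = 0.0521), while Mcm7, Gins2 and Pold1 kept neither. With limma-voom and sample weights Pola1 and Lig1 kept both calls and Mcm7 its fall.

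Over all 39 members, the 5 called ones included, fitted values lay mostly on one side of 0, although 30 and 22 of the 39 95% intervals held 0 in the first and second comparison. After stripping 34 of 39 fitted log2 fold changes lay below 0 (87.2%), compared with 55.5% of all tested genes, and their median was -0.91 against -0.20 over all genes. In the NGO comparison 36 of 39 lay above 0 (92.3%, against 52.0% of all genes), with a median of 1.503 against 0.07. At an unadjusted p under 0.05, 9 members were lower after stripping (23.1%, against 16.5% of all genes) and 17 were higher with NGO cream (43.6%, against 13.5% of them). The groups did not overlap in 11 members that were lower after stripping (28.2%), which is close to the 24.7% of all tested genes for which this was so. With NGO cream 17 members lay above every stripped control library (43.6%, against 16.3% of all genes). In 24 members the group means ran from stripped control to unstripped to NGO skin, and in 9 from stripped control to NGO to unstripped skin. The exceptions were Cdc6, Pole, Mcm4, Gins3, Pola2 and Rfc4.

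**Figure D1:**
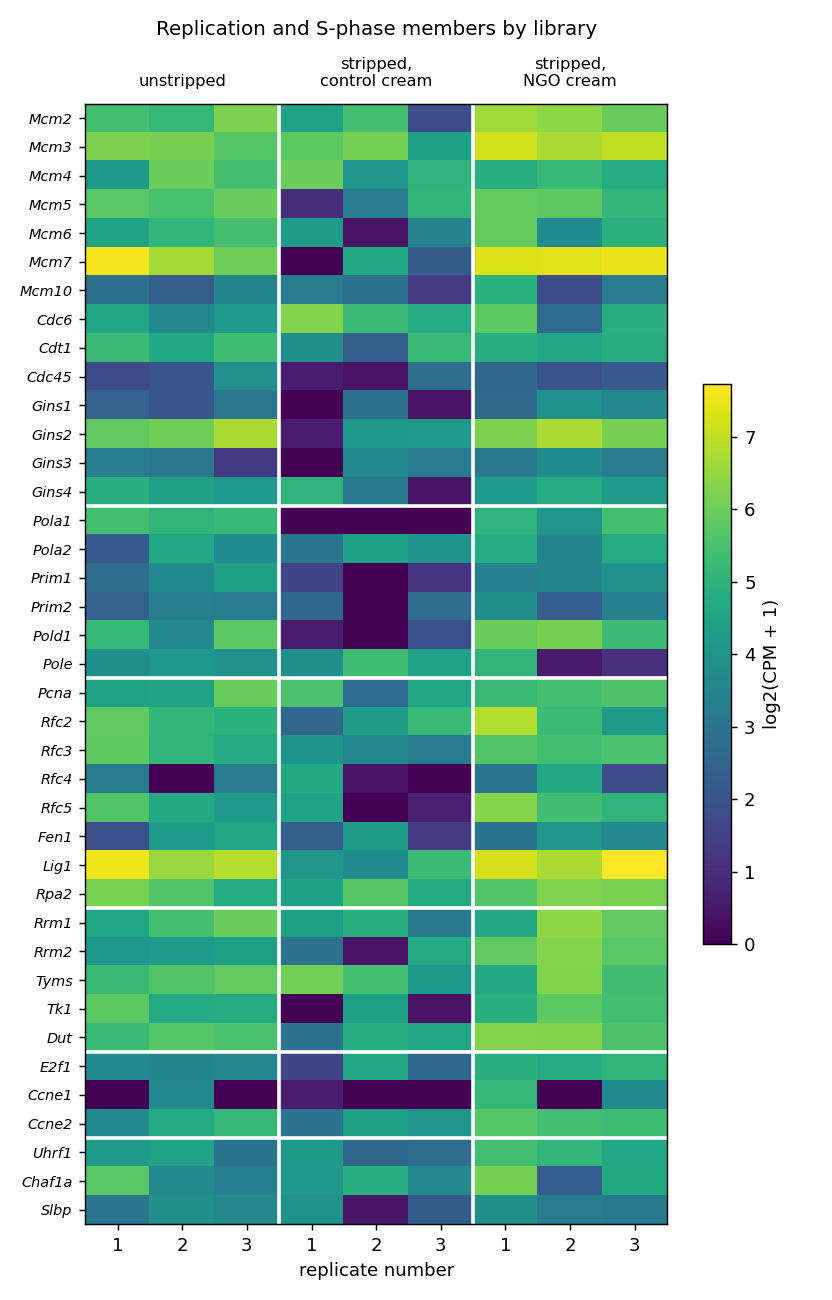
Level of each of the 39 members (rows, grouped by role) in each of the 9 libraries (columns, by group and replicate number), as log2(CPM + 1) on the colour scale. Dark cells at or near 0 lie mostly in the 3 stripped control libraries and fall largely on different members in each, while Pola1 is at 0 in all 3.

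The called member with the plainest pattern was Pola1, the catalytic subunit of polymerase alpha (mm10 chromosome X, 93304767 to 93632155). It had 42.1, 32.2 and 34.9 CPM in the unstripped libraries, 0 counts in all 3 stripped control libraries, and 31.8, 15.4 and 42.5 CPM in the NGO libraries. Every unstripped and NGO library thus lay above every stripped control library. Against a floor of 3 counts over the stripped control group (0.367 CPM), Pola1 was at least 99.1-fold lower after stripping (edgeR adjusted p = 0.000425) and at least 81.5-fold higher with NGO cream (edgeR adjusted p = 0.00264). These bounds cover counting error and not the spread between replicates. Pola1 remained called in each of the 9 fits that left out 1 library.

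Lig1, the ligase that seals the lagging strand (chromosome 7, 13277283 to 13311433), had the most counts of the called members in stripped control skin. Its levels were 184.8, 91.2 and 116.4 CPM in unstripped libraries, 15.4, 12.3 and 38.7 CPM after stripping with control cream and 149.3, 106.1 and 211.3 CPM in NGO libraries. The stripped control libraries were the 3 lowest, and the unstripped and NGO libraries overlapped. The log2 fold change was -2.55 ± 0.50 (SE) after stripping (edgeR adjusted p = 0.00387) and 2.81 ± 0.51 with NGO cream (edgeR adjusted p = 0.00881). Both calls held in every fit that left out 1 library (highest adjusted p 0.0401).

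Pold1, the catalytic subunit of polymerase delta (chromosome 7, 44532746 to 44548849), had 35.2, 11.4 and 52.8 CPM in unstripped skin. In stripped control libraries it had 0.515, 0 and 2.88 CPM, and in NGO libraries 59.8, 70.0 and 38.4 CPM. The stripped control values were all near 0, and the other groups overlapped each other. It changed by -4.78 ± 1.03 and then by 5.53 ± 1.06 on the log2 scale (edgeR adjusted p = 0.00727 and 0.012), and both calls held without any 1 library.

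Mcm7, a subunit of the helicase ring (chromosome 5, 138164583 to 138172422), had 194.3, 102.3 and 65.7 CPM in unstripped skin. The stripped control libraries held 0, 23.6 and 3.84 CPM, and the NGO libraries 158.3, 167.1 and 180.4 CPM. The NGO values were close together, while the unstripped values spread around them. Mcm7 changed by -3.68 ± 0.89 after stripping (edgeR adjusted p = 0.0145) and by 4.16 ± 0.91 with NGO cream (edgeR adjusted p = 0.0226). The first call was lost without unstripped replicate 1 (adjusted p = 0.0616) or stripped control replicate 3 (0.0565). The rise with NGO cream missed the threshold when stripped control replicate 3 was left out (0.0577), and likewise for each NGO library (0.0678, 0.0597 and 0.0588 for replicates 1 to 3). Exons of Mcm7 overlap those of Cops6 and Ap4m1 on the opposite strand, and whether the counting used strand was not given in the sources used here. Reads in the shared exons could therefore be counted for either gene. Neither neighbour was called, with changes of 0.17 and -0.23 for Cops6 and -1.97 and 2.31 for Ap4m1 in the 2 comparisons. Exons of Gins2, Rfc2, Rfc4, Rfc5, Fen1, Tk1, Ccne2 and Chaf1a also overlap those of opposite-strand genes, with the same limit.

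Gins2, a subunit of the GINS complex that joins the helicase (chromosome 8, 120578633 to 120589304), had 56.8, 64.8 and 107.3 CPM in unstripped skin. It had 0.515, 16.5 and 17.3 CPM after stripping with control cream and 72.4, 106.3 and 70.0 CPM in NGO libraries. The stripped control libraries were again the lowest 3. Gins2 changed by -2.71 ± 0.75 (edgeR adjusted p = 0.0282) and by 2.83 ± 0.75 (edgeR adjusted p = 0.0479). The first call was lost without unstripped replicate 1 or 3 (0.0525 and 0.0952). Its rise with NGO cream stayed past the threshold only when stripped control replicate 1 was omitted, and omitting any of the other 8 libraries ended the call (highest adjusted p 0.127). Its exons overlap the opposite-strand gene Gse1, which fell by 1.52 on the log2 scale after stripping (edgeR adjusted p = 0.0443) and was not called with NGO cream.

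**Figure D2:**
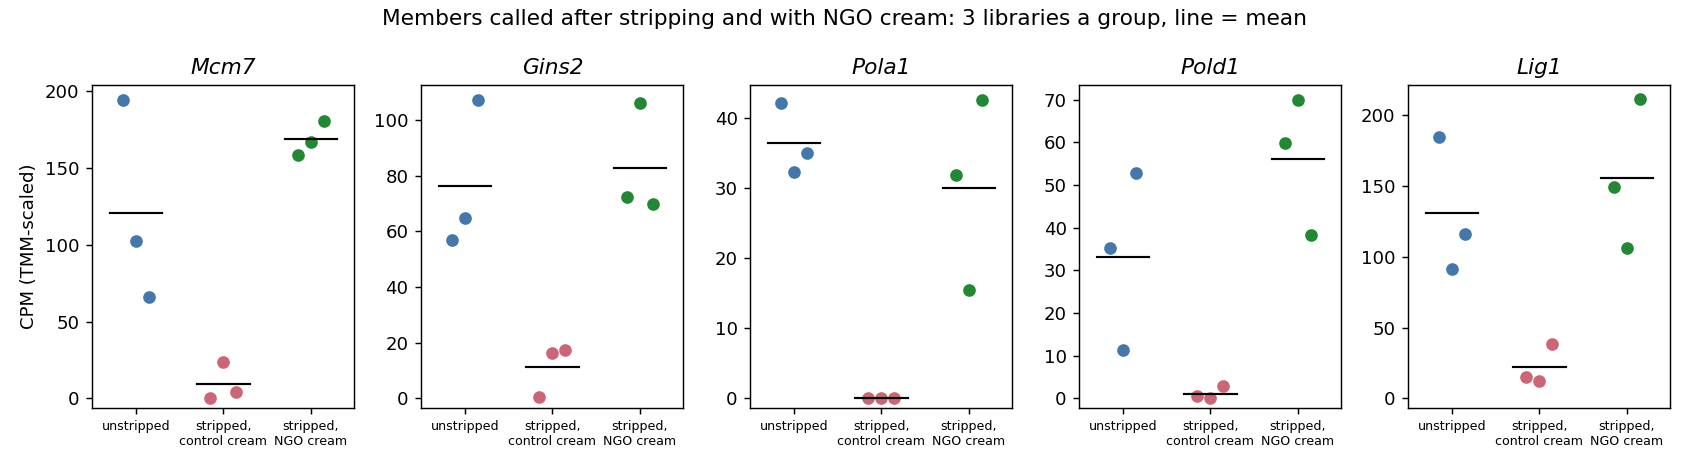
Level in CPM (own linear axis in each panel) of the 5 called members in the 3 libraries of each group, with the group mean as a line. In each panel the 3 stripped control points lie below all unstripped and NGO points, and Pola1 is at 0 in all 3.

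Since many of these genes are known E2F targets, the RefSeq promoter windows (GRCm38.p6, the assembly of mm10; 250 bases before to 50 after the start site) were searched for the E2F letters TTTCCCGC, TTTGGCGC, TTTCGCGC and TTTGCCGC and for CCAAT, on both strands. A window was present for 31 of the 39 members, and 12 of these 31 genes held the E2F letters (38.7%, against 2.6% of 27025 genes with a window). They were Mcm3, Mcm5, Mcm6, Mcm7, Cdc6, Cdt1, Gins3, Pola1, Pold1, Rfc3, Lig1 and Uhrf1. All 4 called members with a window held them (for Lig1 in 1 of its 3 windows), as did 8 of the other 27. This count was made after the calls were known, and it carries no test. CCAAT was found in 20 of 36 member windows (55.6%) and in 37.4% of all windows. In Mcm5 and Mcm6 a pair of E2F matches on opposite strands overlapped by 4 bases. A match shows that the letters are present and is no evidence of binding.

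The 170 bases before the RefSeq start site are shown, with the E2F letters in capitals (5′ to 3′ on the gene's strand). They are given for a pair of called members with matches upstream of that start, and for 2 members with matches that were not called. The Mcm7 and Cdc6 stretches lie within the GENCODE M21 spans of these genes, so their matches lie downstream of the outermost annotated start.
Mcm7, chr5:138171884-138172053, minus strand: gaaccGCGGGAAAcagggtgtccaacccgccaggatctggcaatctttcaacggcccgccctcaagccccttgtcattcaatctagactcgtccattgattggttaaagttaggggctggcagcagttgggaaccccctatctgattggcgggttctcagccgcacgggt
Pola1, chrX:93632156-93632325, minus strand: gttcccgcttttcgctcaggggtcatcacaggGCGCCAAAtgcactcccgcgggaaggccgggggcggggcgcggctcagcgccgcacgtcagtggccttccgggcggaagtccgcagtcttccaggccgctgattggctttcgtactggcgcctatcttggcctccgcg
Mcm6, chr1:128359706-128359875, minus strand: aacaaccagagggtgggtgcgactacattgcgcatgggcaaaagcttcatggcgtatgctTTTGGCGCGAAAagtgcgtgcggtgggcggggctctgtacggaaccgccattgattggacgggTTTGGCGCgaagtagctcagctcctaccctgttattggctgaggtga
Cdc6, chr11:98907981-98908150, plus strand: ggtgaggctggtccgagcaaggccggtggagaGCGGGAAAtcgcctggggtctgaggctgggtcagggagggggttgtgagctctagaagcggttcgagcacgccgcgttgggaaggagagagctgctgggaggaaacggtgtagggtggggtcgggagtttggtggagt

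These 4 genes did not share 1 pattern in the data. Mcm7 and Pola1 fell and rose as given above. Mcm6, whose stretch holds 3 matches, had 21.9, 32.8 and 42.5 CPM in unstripped libraries, 18.0, 0.323 and 9.91 CPM after stripping with control cream and 57.4, 12.4 and 29.8 CPM in NGO libraries, and its changes of -1.80 ± 0.999 and 1.83 ± 0.999 did not pass (edgeR adjusted p = 0.273 and 0.318). Cdc6, which loads the helicase ring, had its lowest mean in unstripped and its highest in stripped control skin. It had 23.9, 11.1 and 17.0 CPM in unstripped libraries, 76.1, 37.8 and 26.5 CPM after stripping with control cream and 54.1, 5.52 and 27.5 CPM in NGO libraries. All 3 stripped control libraries lay above all unstripped libraries, which held for no other member, but the change of 1.43 ± 0.78 did not pass (edgeR adjusted p = 0.261).

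Among the other licensing and helicase genes, no ring subunit other than Mcm7 was called. Mcm2 and Mcm3 averaged 21.9 ± 19.7 and 47.3 ± 24.9 CPM (SD, n = 3) in stripped control skin and 80.8 ± 19.7 and 126.9 ± 19.7 CPM in NGO skin. Their NGO libraries lay above every stripped control library, with log2 differences of 1.88 ± 0.73 and 1.42 ± 0.46 that did not pass (edgeR adjusted p = 0.154 and 0.0892). Mcm5 was spread widely in stripped control skin, at 1.03, 8.73 and 32.3 CPM, below all unstripped libraries (43.7 to 60.1 CPM). It was not called (-1.88 ± 0.81, edgeR adjusted p = 0.15) but was called without stripped control replicate 3, its highest library there (adjusted p = 0.0179 after stripping and 0.0394 with NGO cream). Mcm4 averaged 40.6 ± 23.0, 36.1 ± 23.6 and 29.5 ± 4.85 CPM in unstripped libraries, stripped control and NGO skin, so its small differences lay within the spread.

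Cdt1, the partner of Cdc6 in loading, averaged 33.7 ± 9.14, 17.9 ± 16.4 and 26.2 ± 1.74 CPM in the same order and was not called. Mcm10, Cdc45, Gins1 and Gins3, which act when the helicase fires, had group means between 2.2 and 13.6 CPM, and their replicates spread widely (Gins1 had 0, 6.46 and 0.32 CPM in stripped control skin). Gins4, the other GINS subunit, averaged 22.2 ± 6.13, 13.2 ± 16.2 and 20.7 ± 4.84 CPM, and its stripped control libraries ranged from 0.32 to 31.4 CPM. None of these 6 members was called in any comparison.

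In the polymerase and primase group, the partner subunits did not all follow Pola1 and Pold1. Prim1, the catalytic primase subunit, had 2.06, 0 and 1.28 CPM in stripped control skin against 5.82 to 20.2 CPM in unstripped and 9.31 to 14.1 CPM in NGO skin. The stripped control libraries lay below all others, whose groups overlapped, and Prim1 did not pass with edgeR (-3.51 ± 1.46 and 3.34 ± 1.45, edgeR adjusted p = 0.133 and 0.201) but did with DESeq2 (adjusted p = 0.0201 and 0.0438). Prim2, the other primase subunit, averaged 7.25 ± 2.43, 3.63 ± 3.16 and 8.85 ± 4.68 CPM. Pola2, the accessory subunit of polymerase alpha, was present in each stripped control library (7.2, 20.7 and 14.7 CPM), where Pola1 had 0 counts. Pole, the catalytic subunit of polymerase epsilon, had 13.4, 39.1 and 20.8 CPM in stripped control skin and 32.1, 0.46 and 1.16 CPM in NGO skin. It was thus near 0 in a pair of NGO libraries, and its differences did not pass.

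Of the clamp, clamp loader and lagging-strand genes, Lig1 alone was called. Rfc3, a clamp loader subunit, came near with 55.1, 32.8 and 25.2 CPM in unstripped libraries, 14.9, 11.3 and 8.31 CPM after stripping with control cream and 48.7, 41.4 and 45.2 CPM in NGO libraries. Its stripped control libraries lay below all others, at -1.71 ± 0.58 and 1.97 ± 0.59 (edgeR adjusted p = 0.0685 and 0.0697), and it passed in both comparisons with DESeq2 (adjusted p = 0.0268 and 0.0129). Rfc5 was at 21.6, 0 and 0.639 CPM in stripped control skin and between 31.8 and 79.6 CPM in NGO skin. It was called in both comparisons without stripped control replicate 1 (adjusted p = 0.00166 and 0.00346) and not with it. Rfc2 and Rfc4 overlapped between all groups, and Rfc4 reached 24.7 CPM in 1 stripped control library while it had 0.323 CPM or less in the other two.

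Pcna, the sliding clamp and a common marker of proliferation, did not separate the groups. It had 20.9, 21.7 and 60.7 CPM in unstripped libraries, 44.8, 5.5 and 22.7 CPM after stripping with control cream and 36.3, 42.1 and 46.2 CPM in NGO libraries. The log2 difference with NGO cream was 0.78 with a 95% interval from -0.78 to 2.34, which leaves room for a sizeable change in either direction. Reads of Pcna may also be shared with its annotated pseudogenes, as may those of Tyms. Fen1, the flap nuclease, averaged 15.1 ± 11.05, 8.26 ± 9.45 and 11.2 ± 4.15 CPM. Rpa2, part of the complex that coats single-stranded DNA, averaged 48.6 ± 22.4, 32.3 ± 16.7 and 64.4 ± 14.0 CPM. Neither was called.

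**Figure D3:**
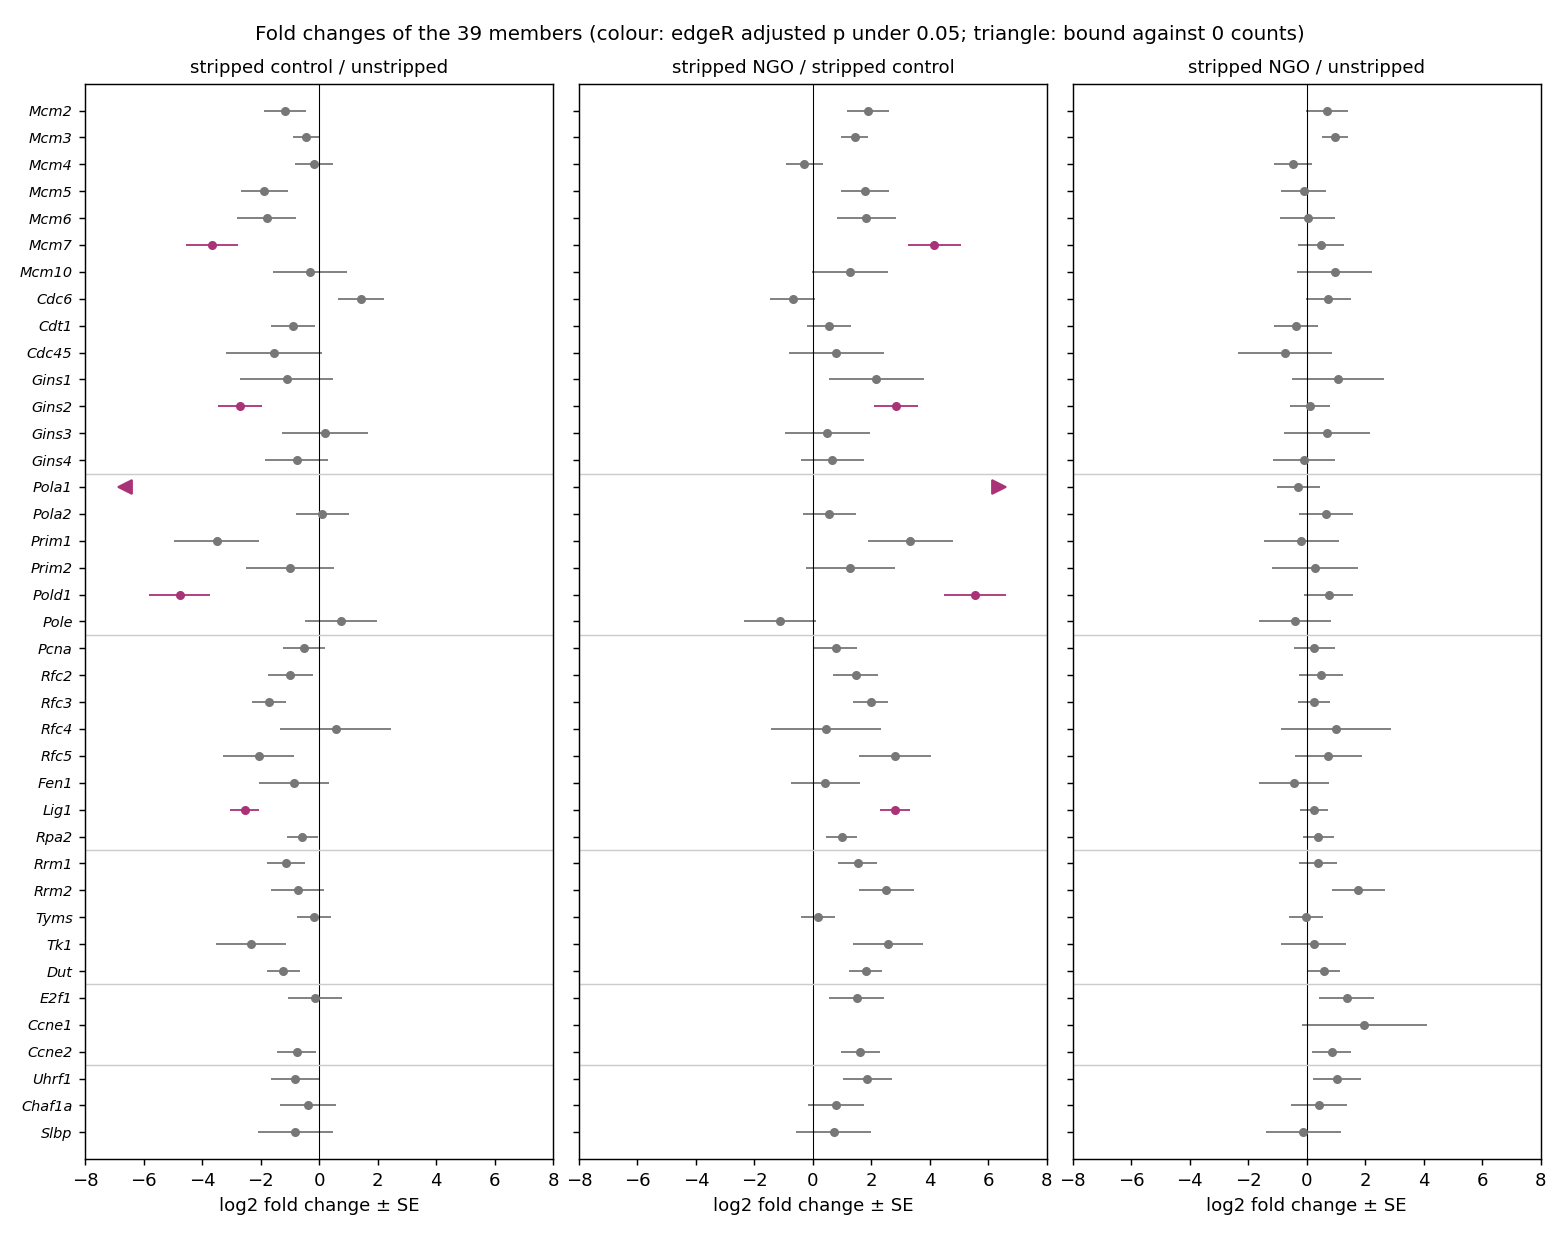
Log2 fold change ± SE (horizontal axis) of the members (rows, grouped by role) in the 3 comparisons, with called members coloured and Pola1 shown as a triangle at its bound against 0 counts. Ccne1 is left out of the first 2 panels because it had 1 count in stripped control skin, and no member is coloured in the third panel.

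None of the 5 nucleotide supply genes was called. Dut, which clears dUTP, had 35.9, 51.0 and 45.4 CPM in unstripped libraries, 6.69, 27.2 and 22.4 CPM after stripping with control cream and 76.9, 75.2 and 47.0 CPM in NGO libraries. Its stripped control libraries were below all others, with changes of -1.22 ± 0.56 and 1.81 ± 0.56 (edgeR adjusted p = 0.169 and 0.0794). DESeq2 called its rise with NGO cream (adjusted p = 0.0316). Rrm2, the S-phase subunit of ribonucleotide reductase, had 16.4, 18.2 and 19.9 CPM in unstripped skin and 55.9, 77.3 and 53.5 CPM in NGO skin. Its stripped control values of 6.69, 0.323 and 25.6 CPM spanned the unstripped ones, and the difference with NGO cream was 2.51 ± 0.95 (edgeR adjusted p = 0.146). It passed without stripped control replicate 3 (adjusted p = 0.0306).

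Tk1, the thymidine salvage kinase, had 0, 20.04 and 0.32 CPM in stripped control skin and at least 25.2 CPM in every other library. It was called in both comparisons without stripped control replicate 2 (adjusted p = 0.00137 and 0.00449) and not with it (0.227 and 0.239). Rrm1, the large reductase subunit, averaged 41.8 ± 19.8, 18.9 ± 10.8 and 54.7 ± 29.7 CPM, and its NGO libraries overlapped stripped control ones. Tyms, which makes dTMP, averaged 47.2 ± 10.8, 41.6 ± 25.0 and 46.9 ± 26.2 CPM. Rfc5, Tk1 and Mcm5 in both comparisons, and Rrm2 with NGO cream alone, were called once their highest stripped control library was left out. That library was replicate 1, 2, 3 and 3 respectively. Leaving out the highest library always lowers the mean of that group, so these fits cannot show why the genes missed the threshold.

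None of the 3 G1/S control genes was called. E2f1, a transcription factor that activates replication genes, had 12.3, 10.6 and 10.8 CPM in unstripped libraries, 2.06, 23.3 and 5.11 CPM after stripping with control cream and 28.8, 25.8 and 32.4 CPM in NGO libraries. All 3 NGO libraries lay above the other 6, but the differences of 1.503 ± 0.94 and 1.37 ± 0.93 against stripped control and unstripped skin did not pass (edgeR adjusted p = 0.39 and 0.712). Ccne2, which encodes cyclin E2, averaged 24.2 ± 11.7, 14.1 ± 6.81 and 43.9 ± 5.9 CPM, and its NGO libraries also lay above the other 6. Ccne1, which encodes cyclin E1, had 0, 11.7 and 0 CPM in unstripped libraries, 0.515, 0 and 0 CPM after stripping with control cream and 34.5, 0 and 12.2 CPM in NGO libraries. A single library carried most of the level in unstripped skin, and NGO replicate 2 was at 0. Of the chromatin and histone supply genes, Uhrf1, which brings the maintenance DNA methyltransferase to new strands, averaged 15.8 ± 7.82, 9.02 ± 6.46 and 32.5 ± 8.89 CPM. Chaf1a, a histone chaperone subunit, and Slbp, which binds histone mRNA, overlapped between all groups.

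The comparison of NGO with unstripped skin gave no called member in the edgeR fit of all 9 libraries, while a fit of these groups alone called Rrm2 (adjusted p = 0.0239). At an unadjusted p under 0.05 there was 1, Mcm3, at 73.6, 69.8 and 51.0 CPM in unstripped and 146.6, 107.2 and 126.9 CPM in NGO skin (log2 difference 0.97 ± 0.45, edgeR adjusted p = 0.427). DESeq2 called 0 members and limma-voom 2, Mcm3 and Rrm2 (adjusted p = 0.0349 and 0.0161). Of all genes, limma-voom called 869 of 13740 higher and the fit of these groups alone 372 of 12723. The members' share was above neither of these. Of the 39 fitted values 28 lay above 0 (71.8%, against 46.3% of all genes), with a median of 0.41. In 5 members every NGO library exceeded every unstripped library (12.8%, against 11.9% of all genes): Mcm3, Rrm2, E2f1, Ccne2 and Uhrf1. The median 95% interval reached 1.80 on the log2 scale to either side, and for no member did it lie within 1 of 0, so a return to the unstripped level was not shown.

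Of 86 further replication genes listed for this pathway, 82 were tested. In stripped control skin 11 fell and none rose, and with NGO cream 10 rose and none fell (13.4% and 12.2%), near the members' share. None of 14 tested origin licensing and firing genes was called in either comparison. Among the fork and polymerase subunits, 2 of 18 fell and 2 rose. Rfc1, the large clamp loader subunit, had 124.5, 115.2 and 116.1 CPM in unstripped libraries, 40.6, 56.6 and 65.5 CPM after stripping with control cream and 121.6, 173.3 and 204.2 CPM in NGO libraries, and changed by -1.13 ± 0.35 and 1.61 ± 0.35 (edgeR adjusted p = 0.0453 and 0.0211). Pole2, a polymerase epsilon subunit, and Chtf18, of an alternative clamp loader, had 0 counts in stripped control skin. Pole2 was at least 17.4-fold lower after stripping (edgeR adjusted p = 0.0427), and Chtf18 at least 43.3-fold higher with NGO cream (edgeR adjusted p = 0.048).

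Of 10 chromatin assembly genes 2 fell and 3 rose. Dnmt1, the maintenance DNA methyltransferase that Uhrf1 recruits, was even within groups, at 72.5, 57.2 and 68.0 CPM, then 11.3, 9.37 and 10.9 CPM, then 49.9, 35.4 and 50.6 CPM in unstripped libraries, stripped control and NGO skin. It changed by -2.64 ± 0.49 and 2.10 ± 0.48 (edgeR adjusted p = 0.00257 and 0.0267). Cdca7l had 0 counts in stripped control skin and was at least 101.5-fold lower there and at least 91.5-fold higher with NGO cream (edgeR adjusted p = 0.000637 and 0.00338). Of 12 nucleotide supply genes Tk2, the mitochondrial thymidine kinase, fell to 0 counts, at least 24.7-fold lower, and was at least 38.4-fold higher with NGO cream (edgeR adjusted p = 0.0161 and 0.0289).

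Of 28 G1/S control genes 6 fell and 4 rose. The cyclin D2 gene Ccnd2 had 830.7, 752.3 and 691.9 CPM in unstripped libraries, 143.0, 161.6 and 145.1 CPM after stripping with control cream and 373.3, 200.4 and 298.9 CPM in NGO libraries. It fell by 2.34 on the log2 scale after stripping (edgeR adjusted p = 0.000196), was not called with NGO cream (0.96 ± 0.29, edgeR adjusted p = 0.0749), and was the 1 gene of the 82 called between NGO and unstripped skin (-1.38 ± 0.29, edgeR adjusted p = 0.0203). Fbxo5, an inhibitor of the ubiquitin ligase that ends mitosis, had 0 counts in stripped control skin and was at least 97.7-fold higher with NGO cream (edgeR adjusted p = 0.00493). E2f7, a repressor of the E2F family, had 20.9, 6.74 and 9.09 CPM in unstripped libraries, 1.03, 0 and 0 CPM after stripping with control cream and 42.3, 180.2 and 29.1 CPM in NGO libraries (edgeR adjusted p = 0.0107 and 0.00395).

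The members' summed level moved with that of other gene lists. It was 1271 ± 127.8 CPM in unstripped libraries, 578.2 ± 77.3 CPM after stripping with control cream and 1693 ± 160.8 CPM in NGO skin (SD, n = 3), and the 3 groups did not overlap. The 20 mitosis and G2/M genes summed to 979.0 to 2090.4 CPM, 335.0 to 604.5 CPM and 2023 to 2319 CPM. Of them 7 fell after stripping and 8 rose with NGO cream. Top2a, the S and G2 topoisomerase, changed by -3.003 ± 0.40 and 3.69 ± 0.41 (edgeR adjusted p = 0.000236 and 0.000677), whereas Mki67, the usual proliferation marker, did not pass (-2.20 ± 0.78 and 2.41 ± 0.78, edgeR adjusted p = 0.0791 and 0.0931). The difference between this list and the replication members was not tested.

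The 13 basal epidermal markers, whose cells hold most replication in the epidermis, summed to 23473 to 32354 CPM in unstripped libraries, 2357 to 3408 CPM after stripping with control cream and 12856 to 19446 CPM in NGO libraries, and none was at 0 counts in any group. Of them 9 fell and 1 rose after stripping, and 8 rose with NGO cream. Krt5 changed by -3.31 ± 0.33 and 3.28 ± 0.33, and Krt14 by -3.10 ± 0.45 and 2.88 ± 0.44 (edgeR adjusted p from 4.1e-05 to 0.00331). Per CPM of these markers, the summed members were at 0.0469 ± 0.00345 in unstripped skin, 0.206 ± 0.0223 after stripping with control cream and 0.109 ± 0.0156 with NGO cream (SD, n = 3), and the groups did not overlap. The members were thus highest against the basal markers in the group where their own level was lowest. In bulk skin, fewer cells of a type and less RNA per cell cannot be told apart.

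**Figure D4:**
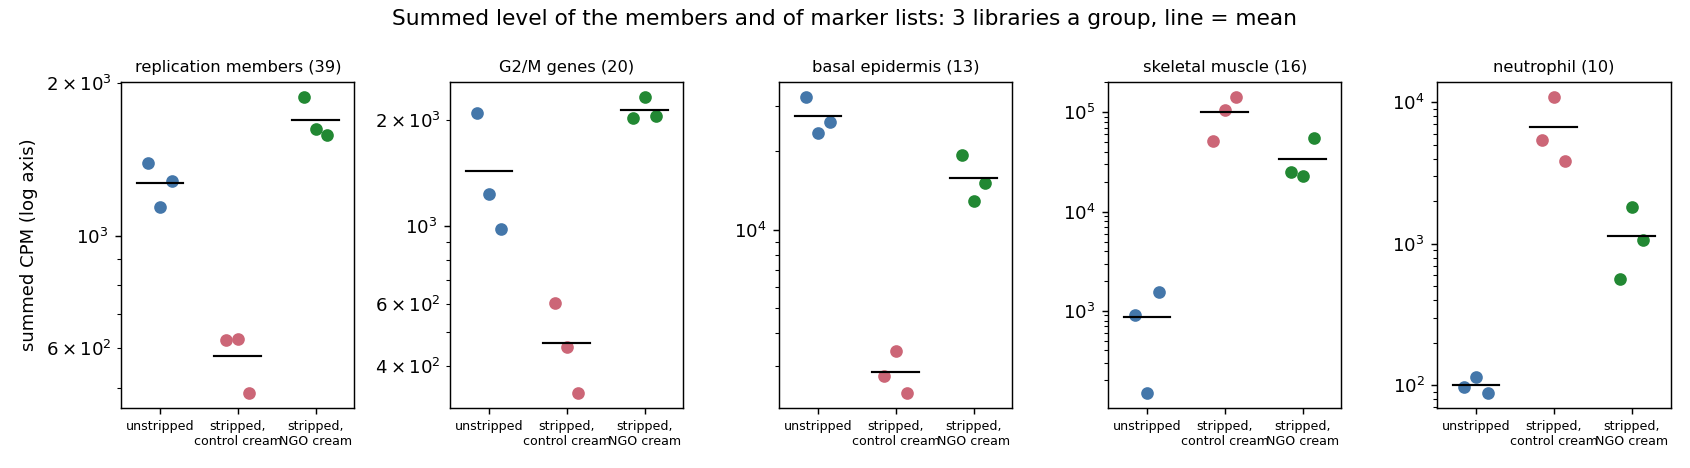
Summed CPM (log axis, its range differs between panels) of the 39 members and of 4 marker lists in each library, with the group mean as a line. The members, G2/M and basal epidermal sums are lowest in the 3 stripped control libraries, where the neutrophil sums are highest. The muscle sums of stripped control (51156 to 142289 CPM) and NGO libraries (up to 54873 CPM) overlap.

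Other tissue moved with the same libraries, and its part in the members' results was not tested. The 16 skeletal muscle markers summed to 149.2 to 1557 CPM in unstripped libraries, 51156 to 142289 CPM after stripping with control cream and 23099 to 54873 CPM in NGO skin, and 16 rose after stripping while none was called with NGO cream. The 10 neutrophil markers summed to 88.3 to 113.7 CPM, 3858 to 10889.9 CPM and 563.4 to 1809 CPM, with 6 that rose and then 5 that fell. Macrophage markers summed to 65.1 to 128.0 CPM, 300.5 to 785.5 CPM and 140.6 to 209.8 CPM, and 2 of 10 rose after stripping. Of the 13 hair follicle matrix and shaft markers 9 had 0 counts in stripped control skin and 7 in NGO skin. Most of these rest on unstripped replicate 2: its sum was 233.4 CPM, against 49.3 and 54.5 CPM in the other unstripped libraries, 43.7 to 47.8 CPM in stripped control and 24.9 to 52.0 CPM in NGO libraries, and Krt35 and Krt71 had counts in that library alone. Of 7 T cell markers Cd3d, Cd2 and Il2rb had 0 counts in stripped control skin. All 7 summed to 86.5 to 171.8, 137.4 to 209.7 and 166.0 to 197.0 CPM, of which Icos gave 105.0 to 195.6 CPM in stripped control skin. After stripping 8 of 9 suprabasal epidermal markers fell, and 5 of 8 endothelial, 4 of 8 fibroblast and 3 of 7 tested adipocyte markers rose. Rn45s, the ribosomal RNA precursor, took 22.1% to 25.1% of counts in stripped control, 13.2% to 16.05% in unstripped and 9.35% to 21.0% in NGO libraries. With library sizes taken without the muscle list and Rn45s, the same 5 members were called in each of the first 2 comparisons. This changed the scaling only slightly (median over all genes after stripping -0.189, against -0.199 in the main fit). It does not test the part of other tissue.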

How the data were processed

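For each of the 9 libraries the authors deposited whole-number counts by gene symbol. The submitters' processing notes name Bowtie2 and bedtools with no version, and mm10 as the genome build. Per the labels' protocols, 500 ng of total RNA went into Lexogen Quant-Seq libraries, which tag the 3′ end of transcripts, so a count does not grow with transcript length. Rules for strand, overlapping genes and multiply matching reads were not given in the sources used here.

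Counts were analysed in R 4.3.3 with edgeR 4.0.16 (robust quasi-likelihood test, TMM, filterByExpr with a minimum count of 10), with 1 mean per group over all 9 libraries. Benjamini-Hochberg adjustment covered the 13740 genes tested. SE is the fold change divided by the root of the F statistic. The code of the fit was checked on simulated counts with the same spread in every group. That check does not cover the wider spread of the stripped control libraries. Exact permutation of 3 libraries against 3 gives no two-sided p below 0.1. Positions and overlapping exons came from GENCODE M21 and promoters from RefSeq. The alternatives used limma 3.58.1 and DESeq2 1.42.0 among others.

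The members, the lists and the alternatives were chosen with earlier results of these data known. Every member is named. Members called in any comparison are given in all 9 libraries, some others also, picked after their values were seen. Of the further pathway genes, up to 2 called genes with the smallest p were named per list and comparison.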

Additional observations from a re-analysis of the deposited data

How the results depend on the processing

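No member's called change reversed under any alternative run, and Pola1 and Lig1 were called in each fit that left out 1 library. After stripping, the number of members that fell was 5, and 7 with DESeq2 (1548 of 13740 genes). It was 3 with limma-voom and sample weights (1184 of 13740 genes) and 2 of 38 with only the libraries compared (812 of 12610). With limma-voom and with only the libraries compared, the members' share was not above that of all genes. Leaving out 1 library each gave 3 to 6 (568 to 1148 genes). With NGO cream the number that rose was 5, and 8 with DESeq2 (1043 of 13740 genes). It was 2 with limma-voom (195 of 13740 genes) and 1 of 38 (Lig1) with only the libraries compared (83 of 12406). Leaving out 1 library each gave 3 to 6 (177 to 665 genes). Against unstripped skin, 2 members were higher in NGO skin with limma-voom (869 of 13740 genes). With only the libraries compared 1 member (Rrm2) was higher (372 of 12723 genes). Neither share of the members was above that of all genes. The median log2 fold change of the members was -1.52 after stripping and 2.07 with NGO cream under limma-voom. Over all genes the medians under limma-voom were -0.62 and 0.24, also further from 0 than in the main fit. Without 1 library each, the members' medians ran from -1.11 to -0.76 and from 1.32 to 1.66, and against unstripped skin from 0.27 to 0.58. Between libraries of different groups with equal replicate numbers, deviations from the group mean correlated at -0.064 to 0.098 (9 pairs). In the 18 pairs with other numbers they correlated at -0.15 to 0.072. No pair of either set lay above 0.1, so that cut does not tell the sets apart. With the replicate number as a block the members' medians were -1.20 and 1.92, against -0.46 and 0.20 over all genes. The same 5 members were called in both comparisons. Mcm7 lost both calls with no low-count filter (adjusted p = 0.127 and 0.128), and Gins2 lost its second with RLE factors (0.0548). Cdc45 gave no value under the filter of 20 counts in 3 libraries, and Ccne1 none in the first 2 comparisons when a fit held only the libraries compared. The cause of these changes was not tested. Stripped control replicates 2 and 3 held 3835539 and 4053655 counts, more than any unstripped library. In them 11 and 6 members had 1 count or none. After TMM scaling, 3 counts stood for 0.970 and 0.959 CPM in these replicates and for 1.54 CPM in stripped control replicate 1. They stood for 0.880 to 1.03 CPM in unstripped and 0.496 to 0.901 CPM in NGO libraries. The part of depth in the members' low counts was not tested.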
